A study of Mus musculus with 8 samples.

Results

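The genes described here are 9 genes of autophagy and mitophagy, Ulk1, Becn1, Map1lc3a, Map1lc3b, Sqstm1, Pink1, Bnip3, Bnip3l and Fundc1, chosen by name from the 25929 genes of the expression table. All 9 were found, and all 9 passed the filter on low values that left 14442 genes for testing. mRNA was sequenced from mouse hearts in 8 libraries, 2 independent samples in each of 4 groups. WT-Sham and WT-TAC hearts came from wild-type mice of the C57BL/6 strain, and Fat1-Sham and Fat1-TAC hearts from littermates of the Fat-1 strain, which carry fat-1, a desaturase gene from Caenorhabditis elegans whose enzyme makes n-3 from n-6 polyunsaturated fatty acids. Mice were 3 months old at surgery. Transverse aortic constriction (TAC) narrows the aorta with a suture and loads the left ventricle with pressure, here for 8 weeks, whereas sham mice had the chest opened without constriction. The labels name ventricular tissue and the methods name whole hearts. The promoter of the transgene is not given in the sources used here, and its mRNA was not analysed here. Levels are given in FPKM, a fragment count corrected for gene length and sequencing depth, and a library is called by its group and number (WT-TAC1).

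Autophagy encloses cytoplasm in a double membrane, the autophagosome, and delivers it to the lysosome. The kinase ULK1 starts the process, and Beclin-1, encoded by Becn1, is the scaffold of the lipid kinase complex that marks the growing membrane. LC3 proteins, encoded by Map1lc3a and Map1lc3b, are attached to lipids of that membrane and bind cargo receptors through a short stretch of the receptor called the LC3-interacting region. The receptor p62, encoded by Sqstm1, links ubiquitin-tagged cargo to LC3. In mitophagy the cargo is a mitochondrion, which is marked by the kinase PINK1 for tagging with ubiquitin, or presented directly by BNIP3, NIX (encoded by Bnip3l) and FUNDC1, receptors in the outer mitochondrial membrane. Cardiomyocytes are rich in mitochondria and depend on their turnover. The values here are mRNA levels, and neither protein nor the flux through autophagy was measured in these files.

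The coding sequences around the LC3-interacting region of 3 receptors are shown, because they are the part through which each receptor meets the LC3 proteins. They were read from GENCODE M21 transcripts (GRCm38, mm10), on the coding strand, and capitals mark the 4 codons of the region. Those of Bnip3 encode tryptophan, valine, glutamate and leucine, and those of Fundc1 tyrosine, glutamate, valine and leucine. Those of Sqstm1 encode tryptophan, threonine, histidine and leucine. Each pattern, searched with any residue as the second, was found at 1 place in its coding sequence.
Bnip3: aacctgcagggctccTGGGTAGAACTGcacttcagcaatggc
Fundc1: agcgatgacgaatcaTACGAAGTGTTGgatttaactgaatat
Sqstm1: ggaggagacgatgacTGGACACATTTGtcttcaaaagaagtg
The Bnip3 window lay at chr7:138898797-138909372 (minus strand) across exons 1 and 2, and its capitals were codons 13 to 16 of 187. The Fundc1 window was in exon 2 at chrX:17571410-17571451 (minus strand) and holds codons 18 to 21 of 155 in capitals. The Sqstm1 window was in exon 7 at chr11:50202526-50202567 (minus strand), with codons 340 to 343 of 442 in capitals.

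Map1lc3a and Map1lc3b differed in pattern over these libraries, most of all in WT-TAC1, so the sequences that tell their reads apart are shown as well. Over 121 codons compared, 81.8% encoded the same amino acid, but only 75.8% of the 363 bases were identical and the longest identical run was 15 bases. The longest stretch that encodes the same protein was codons 30 to 63 of both genes, in exons 2 and 3, and capitals mark the 14 of its 102 bases at which the genes differ.
Map1lc3a: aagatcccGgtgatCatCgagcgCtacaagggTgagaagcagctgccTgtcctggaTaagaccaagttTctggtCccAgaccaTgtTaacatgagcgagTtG
Map1lc3b: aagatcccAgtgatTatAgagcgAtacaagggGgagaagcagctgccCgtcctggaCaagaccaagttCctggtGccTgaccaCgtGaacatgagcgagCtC
These stretches lay at chr2:155277005-155277190 for Map1lc3a and chr8:121593537-121596078 for Map1lc3b (plus strand for both, introns included in the spans).

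The libraries held 14163994 to 21218331 fragments, as recovered from the FPKM values, and 344 to 12452 fragments per library lay on each of the 9 genes. Cardiomyocyte markers were abundant in all 8 libraries, but WT-TAC1 stood apart from the other 7. Of the 14442 genes tested, 58.1% had their highest and 15.8% their lowest level in it. The summed level of 12 cardiomyocyte markers was 34000 FPKM in WT-TAC1 and 61600 to 77900 FPKM in the others, and 11 of the 12 were lowest in WT-TAC1. Mitochondrially encoded genes took 11.76% of its fragments and 19.32% of those of WT-TAC2, against 22.9% to 27.72% in the other 6 libraries. Markers of B cells and thymocytes summed to 985 FPKM in WT-TAC1, to 39.6 and 32.5 in WT-TAC2 and Fat1-TAC2, and to 1.89 to 3.05 in the other 5. Airway and general epithelium markers summed to 1610 and 3800 FPKM in the WT-TAC libraries, against 51.1 in Fat1-Sham1 and 2.45 to 5.21 in the other 5. The adipocyte sum was 1160 FPKM in WT-TAC2, 836 in WT-TAC1 and 256 to 502 elsewhere, and 5 of the 6 were highest in WT-TAC2. Rag1, which immature lymphocytes use to cut receptor genes, was at 252 FPKM in WT-TAC1 and at 0 in both WT-Sham libraries. All 6 macrophage markers were highest in WT-TAC1, where they summed to 532 FPKM against 242 to 413 elsewhere. The part of these cell types in the results below was not tested, and in bulk tissue fewer cells of a type and less RNA per cell cannot be told apart. For the 9 genes, the differences from WT-Sham in WT-TAC hearts are therefore given with both libraries and without WT-TAC1.

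None of the 9 genes passed the test (limma, a fold change beyond 1.5 in either direction at an adjusted p under 0.1) in any comparison. In WT-TAC hearts Bnip3l and Becn1 lay above and Map1lc3a below the sham level, and in all 3 the distance came mainly from WT-TAC1. Outside WT-TAC1, the highest level of a gene was 1.17 (Map1lc3a) to 1.5 times (Bnip3l) its lowest.

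**Figure D1:**
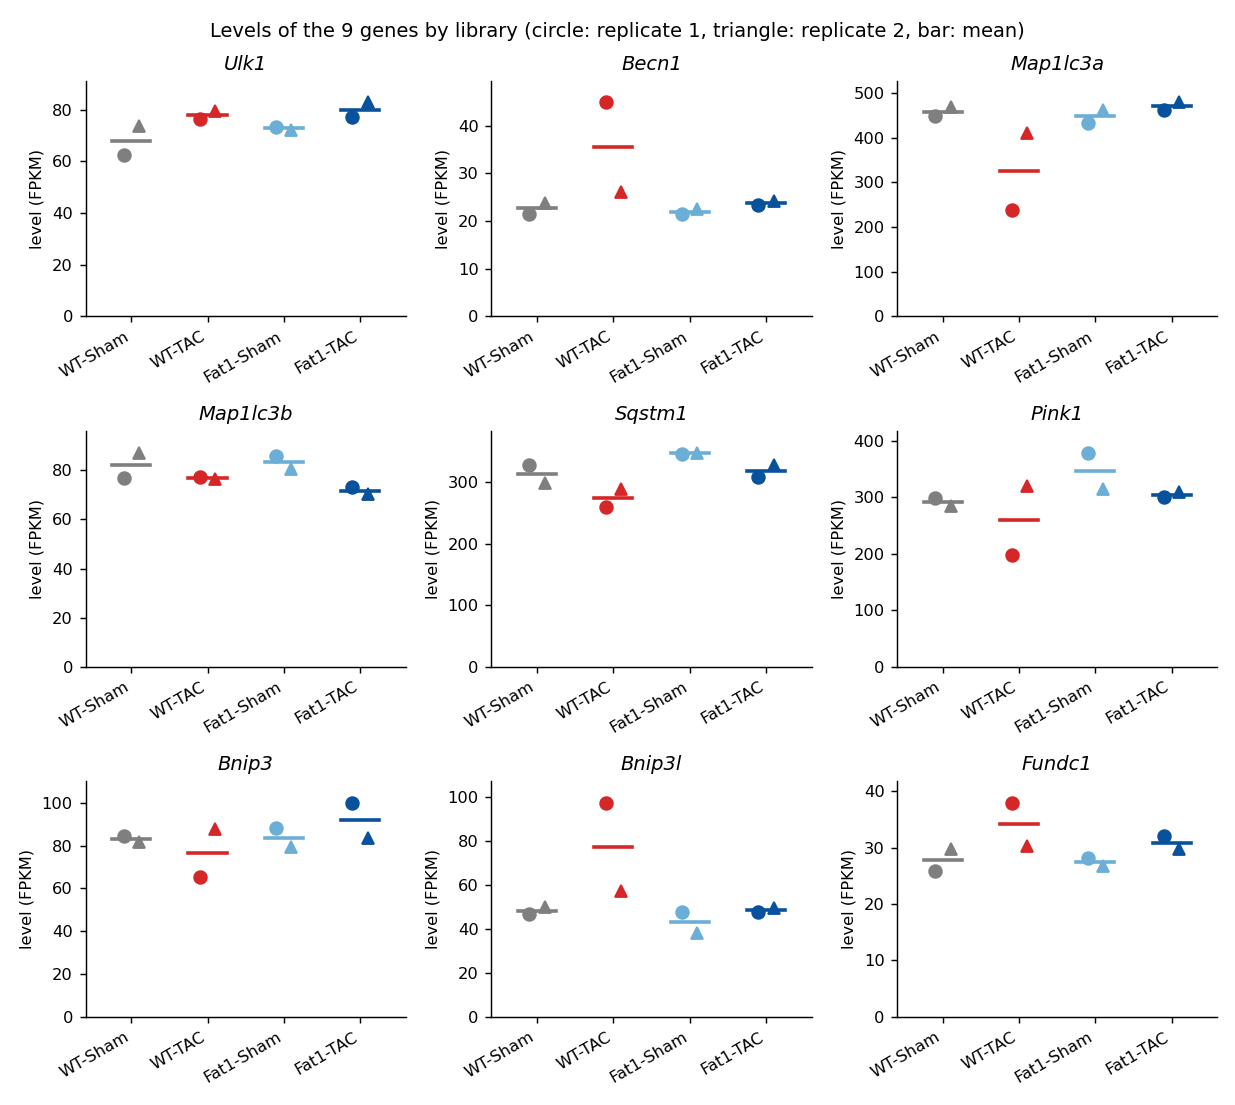
Level of each of the 9 genes in FPKM (vertical axes, from 0) in the 4 groups, with circles for replicate 1, triangles for replicate 2 and bars for group means. The WT-TAC1 circle lies above all other libraries for Becn1 (44.9 FPKM), Bnip3l (97.5) and Fundc1 (38.0) and below them for Map1lc3a (239), Pink1 (198), Sqstm1 (259) and Bnip3 (65.3).

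Of the initiation genes, Ulk1 (chr5:110784488-110810097, minus strand) was measured at 62.4 and 73.5 FPKM in WT-Sham, 76.5 and 79.3 in WT-TAC, 73.2 and 72.3 in Fat1-Sham, and 77.2 and 82.8 in Fat1-TAC hearts. Both TAC groups lay above their sham groups without overlap, by 0.20 ± 0.14 (SE) on the log2(FPKM + 1) scale in wild-type hearts and 0.14 ± 0.14 in fat-1 hearts. The 95% intervals of these differences, -0.13 to 0.53 and -0.19 to 0.46, both included 0. Ulk1 was 1 of 2 genes, with Map1lc3b, for which WT-TAC1 was neither the highest nor the lowest library, and its wild-type difference was 0.22 without WT-TAC1. The adjusted p (limma) was 0.325 in wild-type hearts and 0.399 without WT-TAC1.

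Becn1 (chr11:101285952-101302286, minus strand) was at 21.5 and 23.9 FPKM in WT-Sham, 44.9 and 26.2 in WT-TAC, 21.5 and 22.5 in Fat1-Sham, and 23.4 and 24.3 in Fat1-TAC hearts. WT-TAC1 stood far above the other 7 libraries, at 1.92 times their mean, and WT-TAC2 was the next highest. The WT-TAC mean of 35.6 ± 13.2 FPKM (SD, n = 2) was 1.49-fold that of WT-Sham, 22.7 ± 1.73 FPKM (SD, n = 2), with a log2 difference of 0.58 ± 0.24. Its unadjusted p was 0.0492 and its adjusted p 0.181 (limma). Without WT-TAC1 the log2 difference was 0.20, with an adjusted p of 0.432.

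Of the LC3 genes, Map1lc3a (chr2:155276297-155278073, plus strand) was the most abundant of the 9, at 449 and 468 FPKM in WT-Sham, 239 and 410 in WT-TAC, 434 and 462 in Fat1-Sham, and 463 and 479 in Fat1-TAC hearts. WT-TAC1 was at 0.53 times the mean of the others, and WT-TAC2 was the lowest of the remaining 7. The means were 325 ± 121 FPKM in WT-TAC and 459 ± 13.5 FPKM in WT-Sham hearts (SD, n = 2 each). The log2 difference was -0.55 ± 0.25, with an unadjusted p of 0.0617 and an adjusted p of 0.187 (limma). Without WT-TAC1 it was -0.16, with an adjusted p of 0.436.

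Map1lc3b (chr8:121590361-121598760, plus strand), unlike its paralogue, was not lowest in WT-TAC1. It was at 76.8 and 87.3 FPKM in WT-Sham, 77.4 and 76.5 in WT-TAC, 86.1 and 80.6 in Fat1-Sham, and 73.1 and 70.3 in Fat1-TAC hearts. The WT-TAC libraries lay close to WT-Sham1, whereas both Fat1-TAC libraries lay below all others. Fat1-TAC differed from Fat1-Sham by -0.21 ± 0.13 on the log2 scale, which did not pass the test (adjusted p = 1, limma). WT-TAC differed from WT-Sham by -0.09, or -0.10 without WT-TAC1, beside -0.16 for Map1lc3a without that library. The ratio of Map1lc3a to Map1lc3b FPKM within a library was 3.09 in WT-TAC1 and 5.04 to 6.80 in the others, and it was highest in the Fat1-TAC libraries, at 6.33 and 6.80.

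The cargo receptor gene Sqstm1 (chr11:50199366-50210827, minus strand) was at 328 and 298 FPKM in WT-Sham, 259 and 288 in WT-TAC, 345 and 348 in Fat1-Sham, and 308 and 328 in Fat1-TAC hearts. Both WT-TAC libraries lay below all 6 others, and both Fat1-Sham libraries above all others. The log2 differences were -0.19 ± 0.14 for WT-TAC against WT-Sham, or -0.12 without WT-TAC1, and -0.13 ± 0.14 for Fat1-TAC against Fat1-Sham. Fat1-TAC exceeded WT-TAC by 0.22 ± 0.14, or 0.14 without WT-TAC1, with an adjusted p (limma) of 0.286 with both libraries.

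Pink1 (chr4:138313409-138326307, minus strand), the kinase gene of ubiquitin-dependent mitophagy, was at 299 and 285 FPKM in WT-Sham, 198 and 320 in WT-TAC, 379 and 315 in Fat1-Sham, and 300 and 309 in Fat1-TAC hearts. The WT-TAC libraries lay on either side of the WT-Sham libraries. The log2 difference of WT-TAC from WT-Sham was -0.21 ± 0.23 with both and 0.13 without WT-TAC1. Fat1-Sham exceeded WT-Sham without overlap, by 0.24 ± 0.23, mainly through Fat1-Sham1, and the adjusted p was 1 (limma).

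Of the outer membrane receptors, Bnip3l (chr14:66985239-67008877, minus strand) differed most in WT-TAC hearts. It was at 46.7 and 50 FPKM in WT-Sham, 97.5 and 57.4 in WT-TAC, 47.6 and 38.3 in Fat1-Sham, and 47.8 and 49.5 in Fat1-TAC hearts. WT-TAC1 was at 2.02 times the mean of the others, and WT-TAC2 was again the next highest. The WT-TAC mean of 77.5 ± 28.3 FPKM was 1.54-fold the WT-Sham mean of 48.4 ± 2.34 FPKM (SD, n = 2 each). The log2 difference was 0.62 ± 0.25, with an unadjusted p of 0.0414 and an adjusted p of 0.179 (limma). Without WT-TAC1 it was 0.24, with an adjusted p of 0.422.

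Bnip3 (chr7:138890836-138909519, minus strand), the paralogue of Bnip3l and a known target of hypoxia signalling, was at 84.6 and 81.8 FPKM in WT-Sham, 65.3 and 87.9 in WT-TAC, 88.0 and 79.2 in Fat1-Sham, and 100 and 83.7 in Fat1-TAC hearts. Its groups overlapped in all 4 pairwise comparisons, and the log2 difference of WT-TAC from WT-Sham was -0.13 ± 0.18, or 0.08 without WT-TAC1. The ratio of Bnip3l to Bnip3 FPKM within a library was 1.49 in WT-TAC1 and 0.476 to 0.653 in the other 7. WT-TAC1 was thus the library in which the FPKM of Bnip3l exceeded that of Bnip3.

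Fundc1 (chrX:17556564-17572325, minus strand) was at 25.9 and 29.8 FPKM in WT-Sham, 38.0 and 30.3 in WT-TAC, 28.1 and 26.7 in Fat1-Sham, and 32.0 and 29.8 in Fat1-TAC hearts. Both TAC groups lay above their sham groups, by 0.28 ± 0.17 and 0.17 ± 0.17 on the log2 scale. Without WT-TAC1 the wild-type difference was 0.12, and neither difference passed the test (limma, adjusted p of 0.26 and 1).

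For WT-TAC against WT-Sham, which asks how pressure overload changed these genes in wild-type hearts, 0 of 9 genes were called, beside 0.935% of all genes tested. At an unadjusted p under 0.05, 2 of the 9 lay below the threshold (Bnip3l and Becn1), beside 27.5% of all genes. The groups did not overlap for 6 of the 9, 4 higher and 2 lower, beside 59.6% of all genes. None of these shares is far above the background. The median log2 difference was -0.09 over the 9 genes and 0.39 over all genes tested.

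For Fat1-TAC against WT-TAC, the comparison of the transgene under pressure overload, 0 of 9 genes were called, beside 1.43% of all genes. It shares the WT-TAC libraries with the comparison above. The log2 differences were -0.61 ± 0.25 for Bnip3l, -0.51 ± 0.24 for Becn1 and 0.58 ± 0.25 for Map1lc3a, with adjusted p values (limma) of 0.167, 0.187 and 0.169. Without WT-TAC1 they were -0.24, -0.13 and 0.20. Bnip3l and Map1lc3a had an unadjusted p under 0.05, beside 29.4% of all genes, and 5 of the 9 genes did not overlap between the groups, beside 66.4%. The other 6 genes differed by -0.13 (Fundc1) to 0.27 (Pink1 and Bnip3). Without WT-TAC1 the sign turned for Pink1 (-0.07) and Fundc1 (0.03), and Bnip3 was at 0.06.

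The differences of Fat1-TAC from Fat1-Sham do not involve WT-TAC hearts, but their SE and p values do, through the spread shared by all 8 libraries. Fitted on only these 2 groups, 0 of 9 genes were called, beside 0 of all 14442 genes. An unadjusted p under 0.05 (limma) was then found for 2134 of all genes, against 373 in the fit over 8 libraries. In that fit over 8 libraries 0 of 9 genes were called, beside 0.00692% of all genes, and 0 of 9 had an unadjusted p under 0.05, beside 2.58%. The log2 differences ran from -0.21 (Map1lc3b) to 0.18 (Bnip3l), and all adjusted p values were 1 (limma). Even so, the 2 libraries of each group did not overlap for 8 of the 9 genes, beside 48.3% of all genes, a count for which no test was made. Ulk1, Becn1, Map1lc3a, Bnip3l and Fundc1 lay higher and Map1lc3b, Sqstm1 and Pink1 lower in Fat1-TAC, and Bnip3 overlapped. Some gaps were narrow, at 47.8 FPKM in Fat1-TAC1 against 47.6 in Fat1-Sham1 for Bnip3l. For Map1lc3a, Fat1-TAC1 was at 463 FPKM and Fat1-Sham2 at 462. With libraries scaled to cardiomyocyte genes, Ulk1, Becn1, Bnip3l, Fundc1 and Bnip3 overlapped, and Map1lc3a, Map1lc3b, Sqstm1 and Pink1 lay lower in Fat1-TAC. Apart from Map1lc3a, which was -0.04 when libraries were scaled to cardiomyocyte genes, the sign was the same under each of the 3 other scalings tried. On the cardiomyocyte scale, however, Becn1, Bnip3 and Ulk1 differed by only 0.006, 0.022 and 0.024.

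For Fat1-Sham against WT-Sham, 0 of 9 genes were called, beside 0% of all genes, and 0 had an unadjusted p under 0.05, beside 1.25%. The SE and p values here rest on the same shared spread. With only these 2 groups fitted, 589 of all 14442 genes had an unadjusted p under 0.05 (limma), against 180. The differences ran from -0.18 (Bnip3l) to 0.24 (Pink1). Pink1 and Sqstm1 were higher in both Fat1-Sham libraries than in both WT-Sham libraries and the other 7 overlapped, beside 32.0% of all genes without overlap. The interaction, the TAC difference in fat-1 hearts minus that in wild-type hearts, called 0 of 9 genes beside 0.0692% of all genes, and 0 of 9 had an unadjusted p under 0.05 beside 7.26%. It was 0.62 ± 0.35 for Map1lc3a (adjusted p = 0.495, limma), -0.46 ± 0.35 for Becn1 and -0.44 ± 0.35 for Bnip3l, and the other 6 lay between -0.12 and 0.27. Without WT-TAC1 these 3 values were 0.23, -0.09 and -0.06, and the other 6 ran from -0.31 (Pink1) to 0.06 (Bnip3). A TAC difference in wild-type hearts that differs from that in fat-1 hearts was therefore not shown for any of the 9 genes. With limma-voom on the recovered fragments, 0 of 9 genes were called in each of the 5 comparisons as well. An exact permutation test of 2 against 2 libraries cannot give a two-sided p below 0.33.

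**Figure D2:**
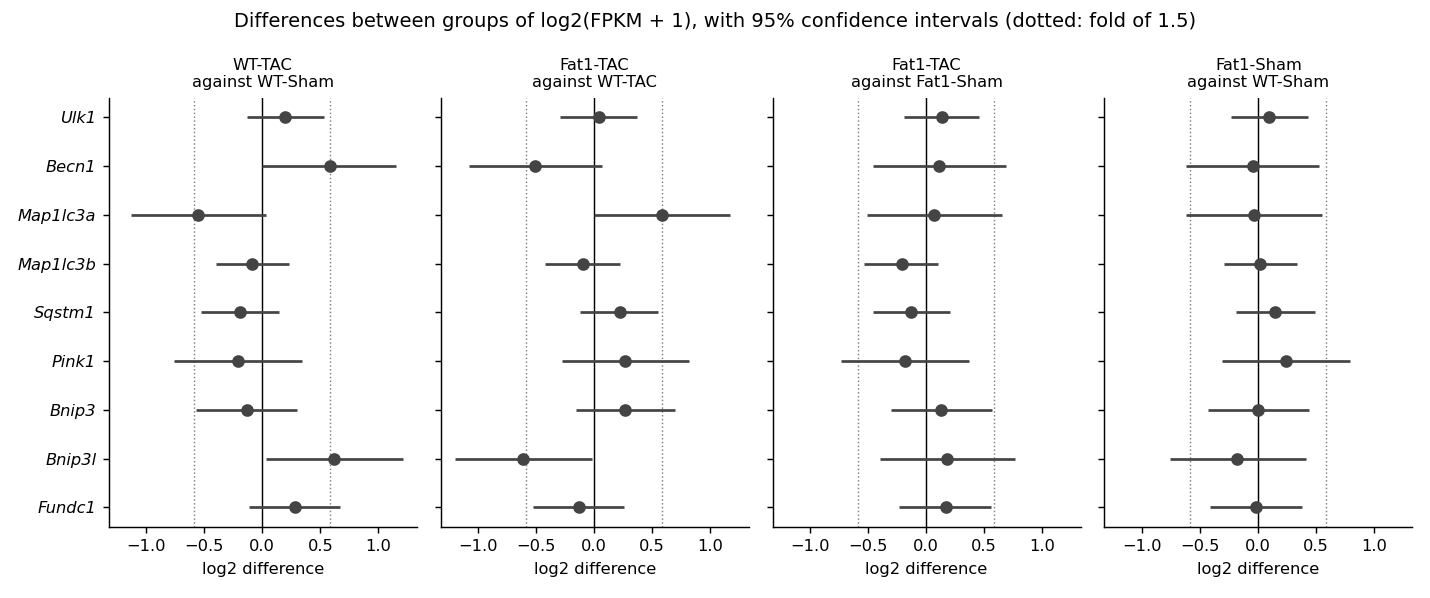
Differences of log2(FPKM + 1) between groups (horizontal axes) for the 9 genes in 4 comparisons, with points for the limma estimates, bars for 95% confidence intervals and dotted lines at a fold of 1.5. In the 2 panels with WT-TAC hearts, the points of Bnip3l (interval 0.03 to 1.21 in WT-TAC against WT-Sham), Map1lc3a and Becn1 lie farthest from 0, and every interval in the 2 panels on the right includes 0.

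The calls turned on which WT-TAC library was used. With WT-TAC1 as the sole WT-TAC library, assumed to vary like the other groups, 3 of the 9 genes were called against WT-Sham. These were Bnip3l at 0.997, Becn1 at 0.953 and Map1lc3a at -0.935 on the log2 scale (adjusted p of 0.00154, 0.000965 and 5e-04, limma), beside 50.5% of all genes. The same 3 and Pink1 (0.615) were called in Fat1-TAC against WT-TAC, beside 53.8%, and the same 3 in the interaction, beside 45.8%. With WT-TAC2 as the sole WT-TAC library, 0 of 9 were called in each of these comparisons, beside 0.144%, 0.180% and 0.0864% of all genes, and the differences from WT-Sham ran from -0.16 (Map1lc3a) to 0.24 (Bnip3l).

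Because cardiomyocyte markers were low in WT-TAC1, each library was also scaled by the geometric mean of its 12 cardiomyocyte genes, relative to the geometric mean over all 8 libraries. The factor was 0.553 for WT-TAC1 and 1 to 1.179 for the other 7. On this scale Map1lc3a was at 433 in WT-TAC1, within the range of 395 to 449 of the other libraries. Pink1 was at 358, within their range of 256 to 362. The other 7 genes were highest in WT-TAC1, among them Bnip3l at 176 (34.0 to 57.4 elsewhere), Becn1 at 81.1 (19.9 to 26.2) and Sqstm1 at 469 (263 to 330). Division by its factor raises every gene of WT-TAC1 relative to the other libraries, and 58.1% of all genes tested were highest there before scaling. The share of all genes highest there on this scale was not counted, so the 7 are not set apart by it. Relative to cardiomyocyte genes, the level of Map1lc3a in WT-TAC1 was thus close to that of the other libraries, whereas those of Bnip3l and Becn1 were 3.96 and 3.77 times their mean.

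The sign of a difference from WT-Sham also depended on the scale. The median over all genes of WT-TAC against WT-Sham was 0.39 on the deposited scale, -0.02 after scaling by the median of ratios and 0.83 after scaling to cardiomyocyte genes. Bnip3l and Becn1 were higher and Map1lc3a lower in WT-TAC hearts on all 4 scales tried, quantile normalization included. Their differences ranged from 0.15 to 1.118, from 0.12 to 1.07 and from -1.02 to -0.05. Pink1, Bnip3, Sqstm1 and Map1lc3b were lower on the deposited scale and higher on the cardiomyocyte scale, at 0.29, 0.36, 0.31 and 0.41. Fundc1 and Ulk1 were higher on both of these and lower by the median of ratios, at -0.18 and -0.27, and after quantile normalization. In Fat1-TAC against WT-TAC, Bnip3l and Becn1 were lower on all 4 scales, whereas Map1lc3a was higher on 3 and at -0.07 on the cardiomyocyte scale, and the other 6 changed sign. None of the 9 was called on any of these scales.

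**Figure D3:**
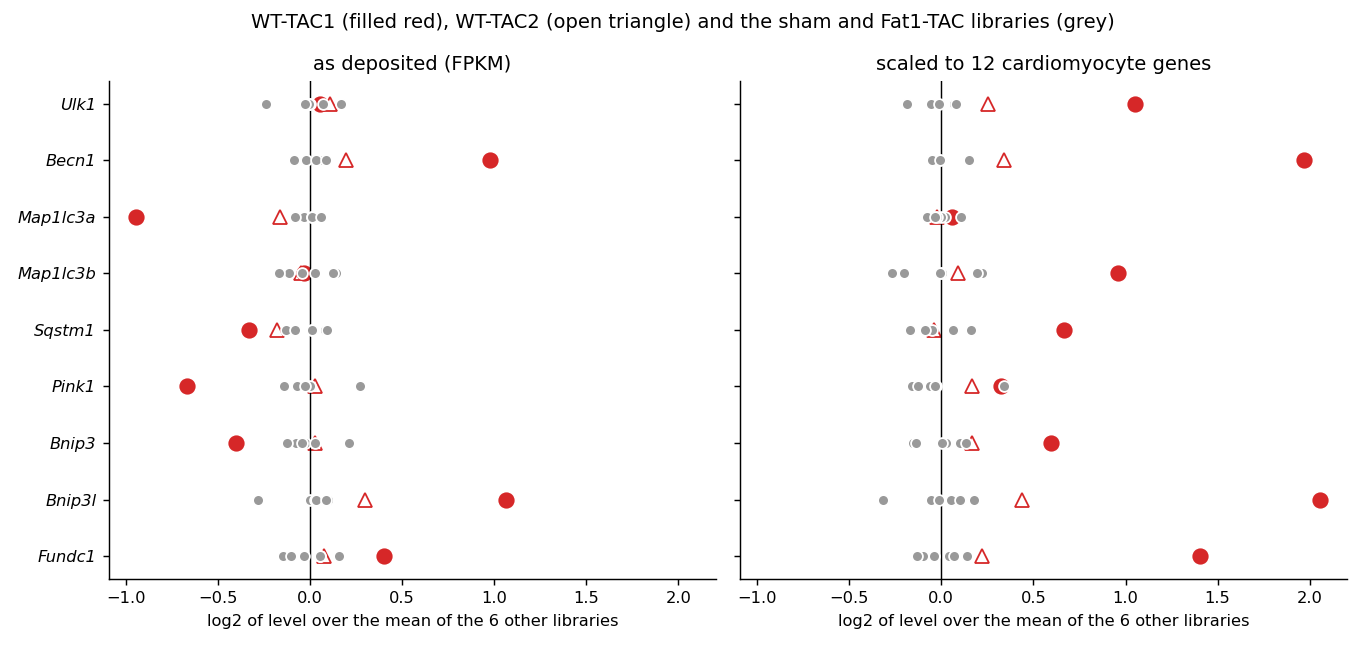
Log2 of the level of each gene over the mean of the 6 sham and Fat1-TAC libraries (horizontal axes), on the deposited FPKM scale (left) and after scaling each library to 12 cardiomyocyte genes (right), with WT-TAC1 as a filled red circle, WT-TAC2 as an open triangle and the 6 other libraries in grey. Map1lc3a in WT-TAC1 moves from the lowest place into the range of the others, Becn1 and Bnip3l lie further above it, and WT-TAC2 lies far nearer to the other libraries than WT-TAC1 for these 2 genes.

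Of the remaining genes of the pathway, 93 were listed by role, 91 were tested, and 0 of 91 were called in any of the 5 comparisons. Between WT-TAC and WT-Sham, an unadjusted p under 0.05 was found for 13 in the upward and 3 in the downward direction, beside 25.7% and 1.81% of all genes, and the median log2 difference was 0.24, beside 0.39 for all genes. Between Fat1-TAC and WT-TAC it was found for 0 upward and 15 downward, beside 2.44% and 27.0% of all genes, with a median of -0.29 beside -0.40. In each of the comparisons of Fat1-TAC with Fat1-Sham and of Fat1-Sham with WT-Sham, 0 of 91 had an unadjusted p under 0.05. In the interaction it was found for 0 upward and 5 downward, beside 0.651% and 6.61%. The differences of single pathway genes below include both WT-TAC libraries, and without WT-TAC1 those from WT-Sham ran from -0.71 to 0.69 with a median of 0.14, beside 0.20 for all genes. WT-TAC1 held the highest level of 50 and the lowest of 21 of the 91 genes.

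All 7 nucleation genes other than Becn1 had a mean above WT-Sham in WT-TAC hearts, as did 79.3% of all genes. Their median log2 difference was 0.59, or 0.23 without WT-TAC1, and none was called. Pik3c3, the lipid kinase itself, reached 12.3 and 7.08 FPKM in the WT-TAC libraries and 5.56 to 6.54 in the others. Uvrag had the largest difference of the list, 0.76 (adjusted p = 0.177, limma), and Pik3r4 the smallest, 0.28. Atg14, which directs the complex to autophagosome formation, differed by 0.32, with 5.79 FPKM in WT-TAC1 and 3.34 to 4.45 elsewhere.

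Of the relatives of LC3, Gabarap was at 180 to 211 FPKM, Gabarapl2 at 40.6 to 49.9 and Gabarapl1 at 74.0 to 108, the lowest value of Gabarapl1 being in WT-TAC1. Their differences in WT-TAC against WT-Sham were 0.01, -0.06 and -0.18. Ulk2, the paralogue of Ulk1, was at 24.4 to 27.9 FPKM in all libraries, and Atg101 of the ULK1 complex was highest in WT-TAC1, at 21.8 FPKM against 10.4 to 15.7.

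Among cargo receptors, Optn was at 22.3 FPKM in WT-TAC1 and 35.4 to 47.9 elsewhere (-0.51 in WT-TAC against WT-Sham, adjusted p = 0.21, limma). Tax1bp1 had the largest difference of the list, 0.51, with 101 FPKM in WT-TAC1 and 51.2 to 62.3 elsewhere. Nbr1 was at 66.9 to 84.3 FPKM, highest in WT-TAC1. Of the genes around PINK1, Tbk1, a kinase of the cargo receptors, and Mfn2, a mitochondrial fusion factor, bounded the list at 0.72 and -0.44. Of the membrane receptors, Fkbp8 had the largest difference (0.54) and Fundc2 the smallest (-0.26), and Bcl2l13 was at 30.2 to 40.7 FPKM.

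Downstream and upstream genes varied as widely. Epg5, a tether for autophagosome and lysosome, had the largest difference of all 91 genes, 0.91, and was at 6.69 FPKM in WT-TAC1 against 1.55 to 2.46 elsewhere. The lysosomal proton pump subunit gene Atp6v1a differed by 0.73 in WT-TAC against WT-Sham and by -0.96 in Fat1-TAC against WT-TAC (adjusted p of 0.175 and 0.143, limma). Tfeb, the regulator of lysosomal genes, was at 22.6 to 40.4 FPKM. Its WT-TAC libraries, at 22.6 and 37.3 FPKM, lay on either side of the WT-Sham libraries, at 27.1 and 31.1 FPKM. The Tfeb difference was 0.00 with both WT-TAC libraries and 0.35 without WT-TAC1. Foxo3 was at 30.9 to 42.8 FPKM with a difference of 0.29. The muscle ligase gene Trim63 had the lowest difference, -0.78, with 57.7 and 99.0 FPKM in WT-TAC and 172 and 99.0 in WT-Sham hearts. Of the hypoxia targets, Slc2a1 had the largest difference (0.61) and Egln3 the smallest (-0.72, with 15.8 and 16.0 FPKM in WT-TAC against 19.5 to 36.3 elsewhere). Sesn2, Atg2b, Atg12 and Foxo1 had the largest differences of their lists, at 0.72, 0.62, 0.44 and 0.45. Prkaa2, Wipi1, Atg10, Mitf and Rab7 had the smallest, at -0.22, -0.26, -0.28, -0.25 and -0.05. Chosen after its values were seen, Vamp8, a SNARE gene of the fusion step, was at 14.3 FPKM in Fat1-Sham1 and 0.846 to 2 in the other 7 libraries. Among the sham and fat-1 libraries Fat1-Sham1 also held the highest levels of the epithelial genes Scgb1a1 (33.1 FPKM), Sftpc (29.9) and Bpifa1 (10.6). The same held for Scgb3a2 (2.82 FPKM), Sftpa1 (3.82) and Ager (2.05). It also held for Cdh1 and Sftpb, but at very low levels, 0.22 and 0.0435 FPKM, with Sftpb at 0.0364 in WT-Sham2. The other airway and alveolar markers, Foxj1, Epcam, Krt8, Krt18, Cldn4, Muc1, Hopx and Aqp5, were not highest there. The part of epithelial cells in the Vamp8 level was not tested.

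As deposited, the mean FPKM over the 8 libraries was highest for Map1lc3a (426), followed by Sqstm1 (313), Pink1 (300), Bnip3 (83.9), Map1lc3b (78.5), Ulk1 (74.6), Bnip3l (54.4), Fundc1 (30.1) and Becn1 (26.0). All 9 lay above the median gene, at percentiles of 76.1 (Becn1) to 98.7 (Map1lc3a) among the genes tested. The order was not the same in all libraries. Pink1 exceeded Bnip3 and Bnip3l exceeded Fundc1 in 8 of 8 libraries, and Map1lc3a exceeded Sqstm1 in 7 of 8. By contrast, Sqstm1 exceeded Pink1 in 6, Bnip3 exceeded Map1lc3b in 5 and Map1lc3b exceeded Ulk1 in 5 of 8, so these neighbours were not separated by the spread over libraries. The order also rests on the gene length used. The lengths at which the FPKM values give whole fragments were shorter than the principal GENCODE transcripts, at 1307 bases against 4365 for Becn1, 1297 against 3581 for Ulk1, 1303 against 3238 for Bnip3l and 720 against 1756 for Bnip3. At the principal lengths the means were 350 FPKM for Map1lc3a, 234 for Pink1, 188 for Sqstm1, 67.3 for Map1lc3b, 34.4 for Bnip3, 27.0 for Ulk1, 21.9 for Bnip3l, 14.2 for Fundc1 and 7.80 for Becn1. Pink1 then stood above Sqstm1 and Map1lc3b above Bnip3. Differences between groups do not depend on the length, apart from the pseudocount.

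Some of the 9 genes share sequence with processed copies, between which the counting could divide reads. Of the 50-base stretches of the annotated transcripts, 25.1% for Bnip3l, 21.9% for Bnip3 and 13.4% for Map1lc3b also occurred in another gene, against 0.0% for Ulk1, Fundc1, Sqstm1 and Map1lc3a, 0.2% for Becn1 and 2.6% for Pink1. The pseudogene Bnip3l-ps was listed at 14.4 FPKM in WT-TAC1 and 5.17 to 9.47 in the other libraries, and it held 6.69% to 12.2% of the fragments of both genes together. Like its parent, it was highest in WT-TAC1. Gm6055, a copy of Map1lc3b, was at 44.7 FPKM in WT-TAC1 and 52.9 to 62.0 elsewhere and held 9.14% to 12.6% of the fragments of both. Gm16439, a copy of Bnip3, was at 1.63 to 2.99 FPKM. The values of Bnip3l, Map1lc3b and Bnip3 are uncertain by the reads that these copies hold. Zcchc14, on the opposite strand and overlapping Map1lc3b, was at 16.7 to 23.2 FPKM, and Mrnip, Cntd1 and Gm18258, opposite Sqstm1, Becn1 and Bnip3, were at or below 2.22. The strand setting of the counting is not given in the sources used here, and without strand the reads of such partners cannot be told apart.

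The genes whose levels ran closest to each member were found by the root mean square difference of centred log2(FPKM + 1) over the 8 libraries, as a description. For Map1lc3a these were Casq2 and Fxyd1 (0.041 each), which encode the calcium store protein of the heart's sarcoplasmic reticulum and a regulator of its sodium pump. For Pink1 they were Pank1 (0.056) and Acads (0.060), an enzyme of mitochondrial fatty acid oxidation. For Becn1 they were Rpsa (0.037) and Gtpbp2 (0.039), for Bnip3l Slc25a14 (0.045) and Snx6 (0.050), and for Fundc1 Srp14 (0.043) and 2310011J03Rik (0.046). Sqstm1 was closest to Sirt5 (0.045) and Pebp1 (0.050), Bnip3 to Trmt5 (0.033) and Rab28 (0.053), Map1lc3b to Pigg (0.033) and Anapc11 (0.036), and Ulk1 to Gm17018 (0.051) and Lamtor1 (0.052). All of these were chosen from at least 11553 genes over the same 8 libraries, so that WT-TAC1 weighs heavily in each choice where it stands apart.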

How the data were processed

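An FPKM value per gene and library, for 25929 genes and 8 libraries, was deposited by the authors. The methods name a NEBNext Ultra library kit and mapping of quality-controlled reads, and the submitters' processing notes name HISAT2 and mm10 (GRCm38). The counting tool and annotation are not given in the sources used here. Genes were matched to GENCODE M21 (GRCm38). The depth of each library was estimated first, from genes with a single annotated transcript. A length was then searched for each gene. For 100.0% of genes a length was found at which all libraries held whole fragments (within 0.02 fragments). For 11487 genes it was the median length of the annotated transcripts. Each group holds independent samples per the labels, which do not say whether animals were pooled. The p-values thus rest on the spread between samples within groups, pooled over all 4 groups, which includes the gap between WT-TAC1 and WT-TAC2.

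Genes that reached 1 FPKM in 2 or more libraries were analysed on the log2(FPKM + 1) scale, and limma 3.58.1 (R 4.3.3; lmFit, eBayes with trend) was fitted over all 8 libraries with 4 group means and Benjamini-Hochberg adjustment over 14442 genes. A call is an adjusted p under 0.1 with a fold over 1.5 or under 1/1.5. Errors are SE of limma or SD over libraries. The script was tested on simulated data. Alternatives were 3 other scalings, other filters, a pseudocount of 0.1, only the groups compared, a replicate block, limma-voom on fragments and leaving out each library. The 9 genes, the pathway and marker lists were chosen with earlier results of these data known. Named pathway genes are paralogues or partners of the 9, called genes, and the largest and smallest difference of each list in WT-TAC against WT-Sham. Atg2a and Calcoco2 had no match. In sorting by likeness, genes with an SD of at least 0.5 times that of the member were eligible. The tests of the pathway lists under the alternatives were added after the data were seen. A gene of the rule for named genes and a sequence are not reported here.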

Additional observations from a re-analysis of the deposited data

How the results depend on the processing

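The number of the 9 genes called was 0 with both WT-TAC libraries under each alternative run. Leaving out each library in turn gave 0 to 3 genes in WT-TAC against WT-Sham, 0 to 4 in Fat1-TAC against WT-TAC and 0 to 3 in the interaction, and 0 to 35, 0 to 33 and 0 to 26 of the 91 pathway genes, with the highest counts without WT-TAC2, where 50.5%, 53.8% and 45.8% of all genes were called, and 0 without any other library. The median over the 9 genes moved to -0.559 in WT-TAC against WT-Sham, 0.502 in Fat1-TAC against WT-TAC and 0.362 in the interaction after scaling by the median of ratios. It moved to 0.409, -0.614 and -0.671 after scaling to cardiomyocyte genes, which also gave 0.006 in Fat1-TAC against Fat1-Sham. Quantile normalization gave -0.26, 0.301 and 0.168 in the same 3 comparisons. Leaving out a library gave medians of -0.109 to 0.121, -0.013 to 0.088 and -0.179 to -0.003 in the 3 comparisons with WT-TAC. Over all genes, the calls in WT-TAC against WT-Sham went from 135 to between 0 (without WT-Sham1 or WT-Sham2) and 7065 (without WT-TAC2), and in Fat1-TAC against WT-TAC from 206 to between 5 (without Fat1-TAC1) and 7523 (without WT-TAC2). With the replicate number as a block, 0 of 9 genes were called in each comparison, and deviations of equal numbers correlated by -0.14 to 0.02, so the numbers were not taken as pairs. The interaction needs all 4 groups and was not run on only the groups compared. The cause of these shifts was not tested. With 2 libraries a group, the intervals given were wide, and any difference within them is compatible with these values.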
